A study of Homo sapiens with 4 samples.

Results

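The comparison described here is the effect of TET1 knockdown in hypoxic FaDu cells, read as the difference between 2 RNA-Seq libraries. Its members are the genes of the deposited expression table with a mean of at least 1 FPKM over the 4 libraries, a gene ID on 1 row only and a locus of at least 300 bp. FPKM are fragments scaled to the length of the transcript and the depth of the library. Of 62077 rows in the table, 14585 met this rule.

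FaDu is an established squamous carcinoma line of the human hypopharynx. All 4 libraries came from this line, transduced with a lentiviral pLKO.1-puro construct and grown in DMEM with serum. The H-scr library was made from cells with the scrambled control kept for 19 h at 1% O2, 5% CO2 and 94% N2, and H-si from cells with the TET1 hairpin (TET1-si) under the same conditions. N-scr and N-si were the same 2 kinds of cells in normoxia, that is in air with 5% CO2. Age does not apply to a cell line, and no allele or agent other than the hairpins was named in the labels. The knockdown rested on 1 hairpin in 1 line, the study calls these cells clones, and each group had 1 library. Below, a pair such as the level of a gene under hypoxia gives the scrambled library first and the TET1-si library second. No difference below therefore has a replicate check, no p-value is given, and every change is one between single libraries.

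TET enzymes oxidise 5-methylcytosine in DNA to 5-hydroxymethylcytosine, a step on the way to removal of the methyl group. In hypoxia the HIF transcription factors escape the oxygen-dependent hydroxylation that otherwise leads to their degradation, and they switch on genes of glycolysis, angiogenesis and pH control. The TET enzymes need oxygen and 2-oxoglutarate too, as the HIF hydroxylases do. The study asked which genes depended on TET1 when the cells lacked oxygen.

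The hairpin is the one designed sequence on which the contrast rests, so its target is shown first, from 5′ to 3′ on the sense strand and in lower case with no part marked.
TET1 target: ccttgatagaatcactcagtt
These 21 bases matched the GRCh37 (hg19) genome at 1 place, chr10:70451833-70451853 on the plus strand. The site lies in exon 12 of TET1 transcript ENST00000373644, in the 3′ UTR, 265 bases past the end of the coding sequence.

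TET1 (ENSG00000138336, chr10:70320413-70454239) was low in all libraries and below the minimum of 1 FPKM. Its level was 0.331 FPKM in H-scr, 0.122 in H-si, 0.129 in N-scr and 0.0493 in N-si. Both TET1-si libraries lay below the scrambled library of the same oxygen state, and H-si lay just under N-scr. The ratio of H-scr to H-si was 2.71, on about 77 and 26 reads, and its 95% counting interval as a log2 change ran from -2.14 to -0.78. Such intervals use an exact method (Clopper-Pearson), carry no pseudocount and cover counting error only. They rest on approximate reads recovered from the FPKM with a canonical transcript length, which can differ from the length the authors used. A wrong length would make them too narrow or too wide. The other members of the family did not fall with it. TET2 was 3.63 against 4.73 FPKM under hypoxia and 2.67 against 2.82 in normoxia. TET3 was 4.09 against 5.52 FPKM under hypoxia and 5.08 against 5.58 in normoxia.

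All changes below are H-si less H-scr on the log2(FPKM + 0.1) scale, which understates the ratio of low genes. A gene is said to rise or fall where that change reached 1, which is 2-fold. By this measure 1677 of the 14585 genes (11.5%) rose and 1144 (7.84%) fell after TET1-si under hypoxia. Counts of list members that rose or fell under hypoxia are to be read beside these 2 shares. The share of risers differed with the level of expression, as given below. In normoxia the same contrast, in the other 2 libraries, gave 1717 genes that rose (11.8%) and 702 that fell (4.81%). At 4-fold, 319 rose and 268 fell under hypoxia, and at 16-fold 32 rose and 62 fell. The 25th and 75th percentiles of the change were -0.34 and 0.56, and 59.5% of genes differed by less than 1.5-fold.

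The centre of the distribution depends on how the libraries are scaled. The median change of all genes was 0.10 on FPKM as deposited and -0.015 after median-of-ratios scaling, so a list's median is also given relative to the median of all genes. Among genes that changed, 59.4% were higher on FPKM and 49.1% after that scaling, with 1358 higher and 1407 lower. Of the genes that rose and had recovered reads, 1544 of 1598 had a counting interval above 0. Of those that fell, 1065 of 1089 had one below 0. The intervals come from the same values that chose the genes, so these counts are no separate check.

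The share of risers was lower at each higher range of expression, and that of fallers was not. Between a mean of 1 and 5 FPKM 21.3% rose and 10.7% fell, between 5 and 20 FPKM 11.2% and 6.05%, between 20 and 100 FPKM 5.32% and 6.91%, and at 100 FPKM and above 2.76% rose and 8.35% fell. By annotation, 9.80% of 11901 protein-coding genes rose and 7.90% fell. Of 1663 long non-coding RNA genes 21.5% rose and 7.34% fell.

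The hypoxic and normoxic contrasts share no library, so their overlap can be counted. They do share the line, the hairpin and the kinds of cells. A fixed difference between the scrambled and TET1-si cells would therefore enter both contrasts, and it cannot be told apart from an effect of the knockdown. Of the genes that rose under hypoxia, 949 (56.6%) also rose in normoxia, beside 11.8% of all genes. These 949 are 55.3% of those that rose in normoxia. Of those that fell under hypoxia, 422 (36.9%) also fell in normoxia, beside 4.81% of all genes. These 422 are 60.1% of the normoxic fallers. Opposite 2-fold changes were seen for 23 genes that rose under hypoxia and 27 that fell.

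**Figure D1:**
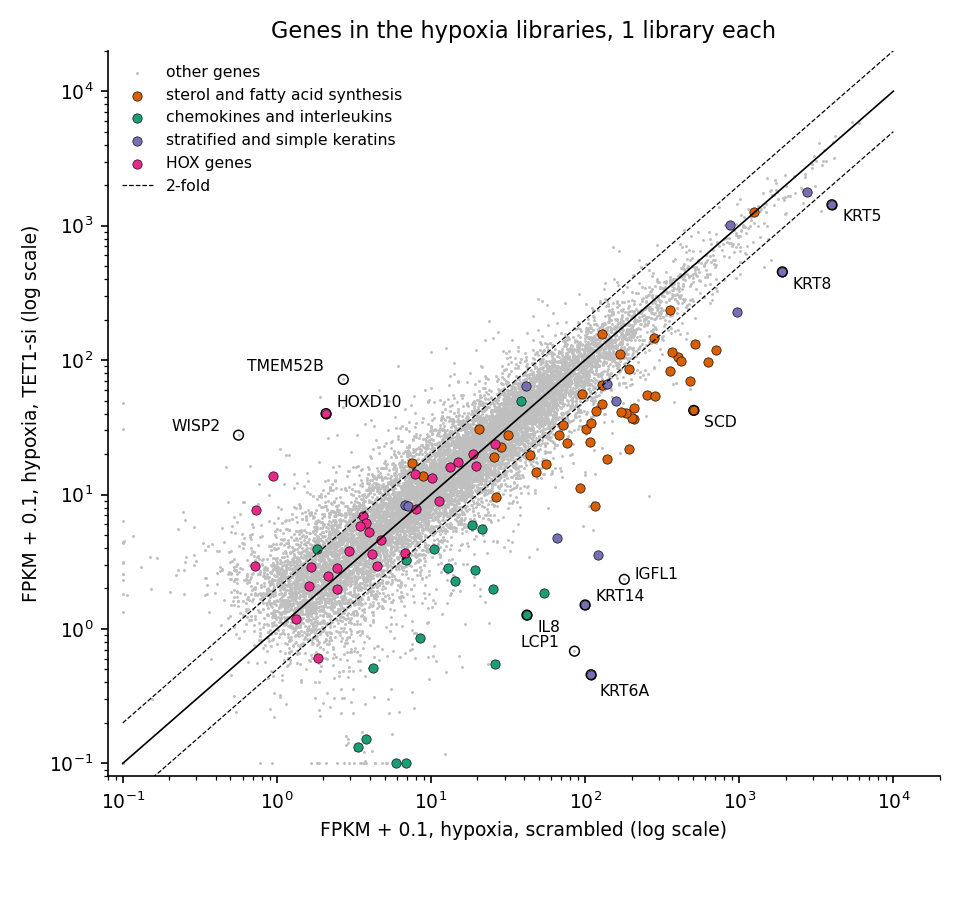
FPKM + 0.1 of 14585 genes in H-scr (horizontal, log scale) and H-si (vertical, log scale), 1 point per gene. The solid line is equality and the dashed lines mark 2-fold. Sterol and fatty acid genes, chemokines and the keratins KRT6A, KRT14, KRT8 and KRT5 lie below the lower dashed line for the most part, and WISP2, TMEM52B and HOXD10 lie above the upper one.

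The 12 protein-coding genes that fell most, at a mean of at least 5 FPKM, were KRT6A, LCP1, IGFL1, KRT14, LTB, KRT13, IL8, CXCL1, FGFBP1, TMEM97, MCTP1 and TNFAIP3. KRT6A (ENSG00000205420, chr12:52880958-52887041, hg19), a keratin of stratified and wounded epithelium, was 109 FPKM in H-scr, 0.357 in H-si, 67.7 in N-scr and 0.394 in N-si. Both scrambled libraries were high and both TET1-si libraries low, and the ratio of H-scr to H-si was 306 (counting interval of the log2 change -9.02 to -7.56). The near-identical KRT6B and KRT6C were below the minimum, and reads shared among the 3 genes may have been split by the authors' counting.

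LCP1 (ENSG00000136167, chr13:46700061-46786006), which encodes the actin-bundling protein L-plastin, was 85.2 against 0.583 FPKM under hypoxia and 71.7 against 1.76 in normoxia. The groups split by knockdown in both oxygen states, with a log2 change of -6.96 under hypoxia and -5.27 in normoxia. The related PLS1, which encodes another plastin, changed the other way, from 13.3 to 28.2 FPKM.

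IGFL1 (ENSG00000188293, chr19:46733009-46734500), a secreted insulin-like growth factor family member, was 179 against 2.24 FPKM under hypoxia and 33.8 against 2.05 in normoxia. Its H-scr value was the highest of the 4 and both TET1-si values were close to 2 FPKM. FGFBP1, which releases fibroblast growth factors from the matrix, was 258 against 9.69 FPKM under hypoxia and 63.5 against 5.26 in normoxia. TMEM97, the sigma-2 receptor and a partner of the NPC1 cholesterol transporter, was 113 against 5.37 FPKM under hypoxia and 46.4 against 17.8 in normoxia. For TMEM97 the normoxic change was -1.38 against -4.37 under hypoxia. MCTP1, a membrane protein with calcium-binding C2 domains, went from 10.7 to 0.478 FPKM. All 12 fallers also fell in normoxia.

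The 12 largest risers under the same rule were WISP2, TMEM52B, ALPP, HOXD10, ANXA9, LRRC7, DIO2, HOXD11, RGL3, CST6, MATN2 and GLDC. WISP2 (ENSG00000064205, chr20:43343485-43357150), a secreted CCN family protein without the usual C-terminal domain, was 0.464 FPKM in H-scr, 27.5 in H-si, 0.173 in N-scr and 4.78 in N-si. The ratio of H-si to H-scr was 59.4 on about 12 and 659 reads in H-scr and H-si. Both TET1-si libraries lay above both scrambled ones, and H-si was the highest.

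ALPP, the placental alkaline phosphatase, was 0.956 against 21.8 FPKM under hypoxia and 0.502 against 1.96 in normoxia. Its change was 4.38 under hypoxia and 1.77 in normoxia. The close relatives ALPPL2, ALPI and ALPL were below the minimum, and reads could have been split among the near-identical ALPP, ALPPL2 and ALPI.

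DIO2, the deiodinase that activates thyroid hormone, was 6.05 against 90.8 FPKM under hypoxia and 6.9 against 117 in normoxia. ANXA9, an annexin, was 2.6 against 45 FPKM under hypoxia and 0.621 against 14.1 in normoxia. MATN2, a matrix adaptor protein, was 9.93 against 115 FPKM under hypoxia and 2.65 against 45.7 in normoxia. In these 3 genes the TET1-si libraries lay above the scrambled ones by at least 10-fold in both oxygen states.

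CST6, an inhibitor of cathepsin proteases, was 3.8 against 50.2 FPKM under hypoxia and 2.71 against 36.4 in normoxia. GLDC, the decarboxylase of the glycine cleavage system, was 2.35 against 27.4 FPKM under hypoxia and 1.21 against 17.3 in normoxia. The remaining risers included RGL3, a Ras effector, at 4.52 against 59.5 FPKM under hypoxia, and TMEM52B at 2.6 against 71.7 FPKM under hypoxia. LRRC7, a scaffold of the synapse, went from 1.1 to 19.7 FPKM. All 12 also rose in normoxia.

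**Figure D2:**
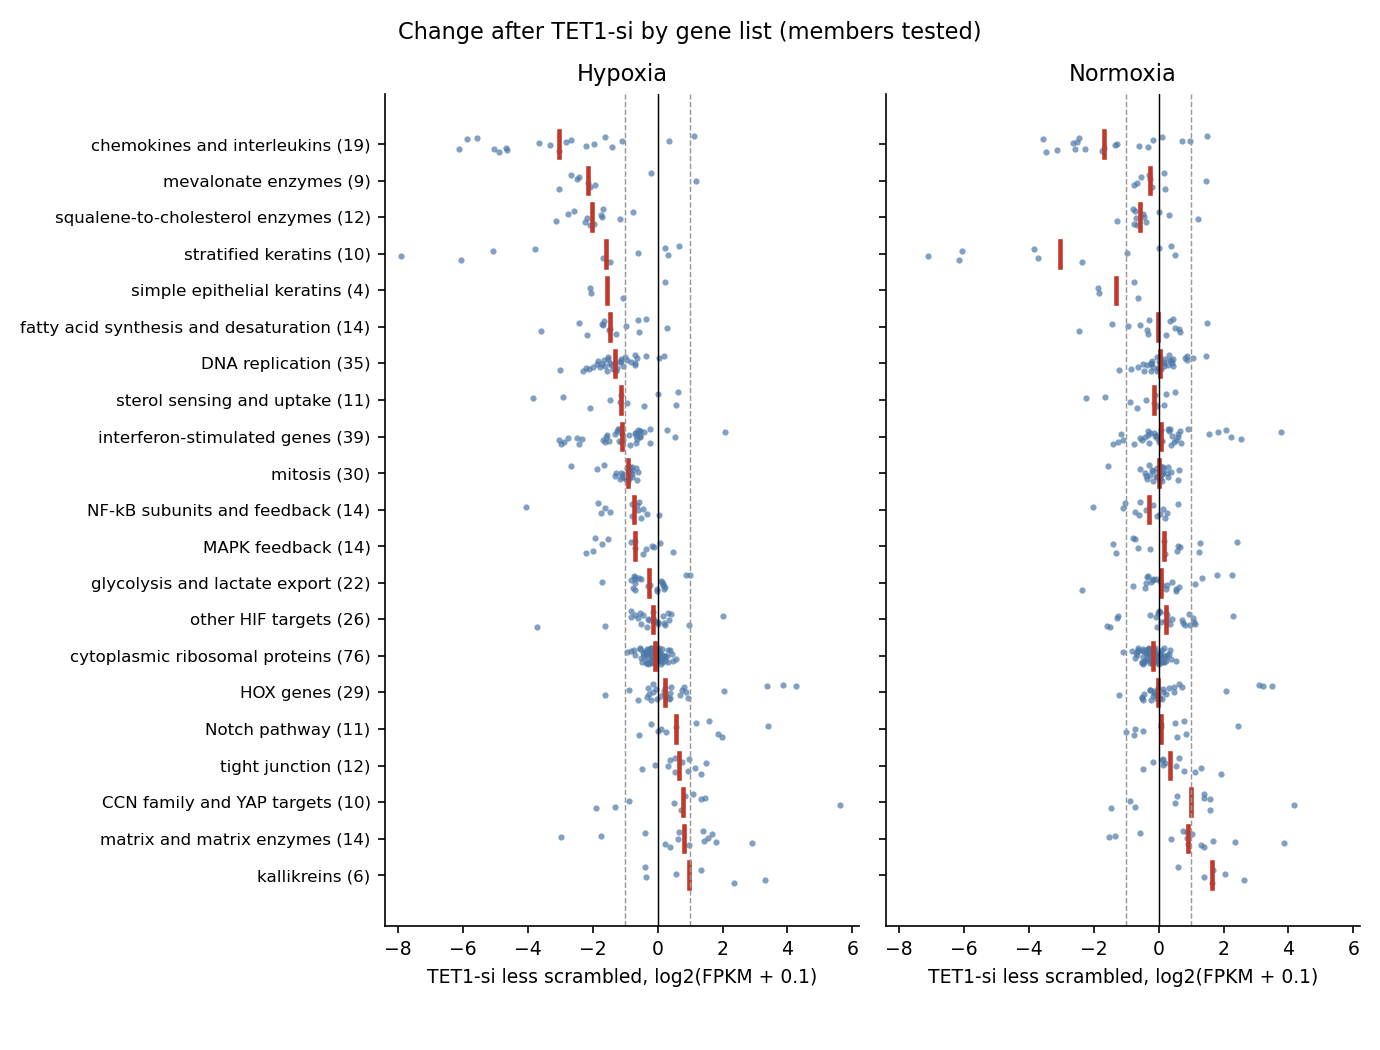
Change after TET1-si on the log2(FPKM + 0.1) scale (horizontal) of the members of 21 gene lists in hypoxia (left) and normoxia (right). Each point is 1 gene, the red bar is the list's median and the dashed lines mark 2-fold. The medians of DNA replication, -1.33 and 0.05, and of mevalonate enzymes, -2.14 and -0.28, lay further from 0 in hypoxia, and that of the stratified keratins, -1.58 and -3.04, lay further in normoxia.

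Cholesterol is made from acetyl-CoA by the mevalonate pathway, which ends in farnesyl diphosphate, and then through squalene and lanosterol. Its enzymes are switched on together by SREBP-2, a membrane-bound transcription factor that SCAP carries to the Golgi when sterols are low and that the INSIG proteins retain in the endoplasmic reticulum. After TET1-si under hypoxia 7 of 9 mevalonate enzymes (77.8%) and 11 of 12 squalene-to-cholesterol enzymes (91.7%) fell, where 7.84% of all genes did. The medians were -2.14 and -2.03, or -2.24 and -2.14 relative to all genes. In normoxia the medians were -0.28 and -0.57, and 0 of 9 and 1 of 12 fell.

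Among the mevalonate enzymes the change differed by step. ACAT2, which joins 2 acetyl-CoA at the start, was 92.1 against 11.1 FPKM under hypoxia and 12.2 against 13.8 in normoxia. MVD, which makes isopentenyl diphosphate, was 206 against 36.3 FPKM under hypoxia and 36.2 against 29.8 in normoxia. In both the H-scr library stood well above the other 3 libraries.

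The synthase HMGCS1 was 356 against 83.3 FPKM under hypoxia and 70.8 against 61.9 in normoxia. IDI1, the isomerase of isopentenyl diphosphate, was 201 against 37.2 FPKM under hypoxia and 48 against 33.1 in normoxia, with a change of -2.43. GGPS1, which leads away from sterols to geranylgeranyl diphosphate, was 31.6 against 27.6 FPKM under hypoxia and 16.9 against 18.7 in normoxia. PMVK was the 1 enzyme of the list that rose, at 7.47 against 17.1 FPKM under hypoxia and 6.0 against 16.7 in normoxia, and both of its TET1-si values lay above both scrambled ones.

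In the sterol branch H-scr was the highest library for 12 of 12 enzymes and H-si the lowest for 3. CYP51A1 (ENSG00000001630, chr7:91741465-91772266), the lanosterol demethylase, was 192 against 21.7 FPKM under hypoxia and 53.7 against 21.9 in normoxia, a change of -3.14 (counting interval -3.22 to -3.07). EBP, the sterol isomerase, was 480.2 against 70.3 FPKM under hypoxia and 165 against 119 in normoxia. LSS, which closes the sterol rings, was 208 against 44.2 FPKM under hypoxia and 15.7 against 11.9 in normoxia. For LSS the H-si value stayed above both normoxic values, and for EBP it lay below both. For CYP51A1 it lay below N-scr and was level with N-si.

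DHCR7, which makes cholesterol in the last step of one branch, was 711 against 119 FPKM under hypoxia and 148 against 89.5 in normoxia. TM7SF2, a sterol reductase, was 44 against 19.5 FPKM under hypoxia and 2.4 against 5.75 in normoxia, so that it fell under hypoxia and rose in normoxia. SC5DL, the desaturase, was 95.5 against 56.2 FPKM under hypoxia and 32.5 against 32.6 in normoxia, a change of -0.76, the smallest of the list.

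Of 11 genes of sterol sensing and uptake, 6 fell and 0 rose, with a median of -1.12 (-1.22 relative to all genes) and -0.15 in normoxia. STARD4, a carrier of cholesterol between membranes, was 138 against 18.4 FPKM under hypoxia and 17 against 5.34 in normoxia. It was highest in H-scr and lowest in N-si.

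SREBF2, which encodes SREBP-2, was 193 against 85.8 FPKM under hypoxia and 84.9 against 46.1 in normoxia, and INSIG2 was 25.4 against 19 FPKM under hypoxia. SCAP, in contrast, was 20.3 against 30.4 FPKM under hypoxia, a change of 0.58. MYLIP, a ubiquitin ligase, was 8.81 against 13.6 FPKM under hypoxia. NPC2, which binds cholesterol in the lysosome, was 1252 against 1264 FPKM under hypoxia, the highest level of the list and a change of 0.014.

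Fatty acid synthesis is controlled by the sister factor SREBP-1. Here 9 of 14 genes fell (64.3%) and 0 rose, with a median of -1.48 (-1.58 relative to all genes) and -0.029 in normoxia. SCD (ENSG00000099194, chr10:102106877-102124591), which puts the first double bond into fatty acids, was 506 against 42.2 FPKM under hypoxia and 79.5 against 14.4 in normoxia. ACLY, which makes cytosolic acetyl-CoA from citrate, was 251 against 55.1 FPKM under hypoxia and 74.9 against 87.7 in normoxia. ACSS2, which makes it from acetate, was 286 against 53.5 FPKM under hypoxia and 10.0 against 28.2 in normoxia. SCD fell in both oxygen states, ACLY under hypoxia and not in normoxia by the 2-fold measure, and ACSS2 fell under hypoxia and rose in normoxia. The difference between the oxygen states was not tested for any of them.

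FASN, the synthase of palmitate, was 357 against 238 FPKM under hypoxia and 139 against 219.8 in normoxia, a change of -0.59 that did not reach 2-fold. The elongase ELOVL6 was 55.9 against 16.9 FPKM under hypoxia and 46.6 against 17.2 in normoxia. Its relative ELOVL5 was 109.7 against 33.9 FPKM under hypoxia and 81.3 against 54.7 in normoxia. Both elongases fell under hypoxia, and in normoxia ELOVL6 alone of the pair did. SREBF1, which encodes SREBP-1, was 280.3 against 145 FPKM under hypoxia and 105 against 94.9 in normoxia. LPIN1, a phosphatidate phosphatase on the way to triglyceride, was 51.9 against 13.2 FPKM under hypoxia and 6.55 against 12.9 in normoxia. It was the 1 of 11 lipid droplet and triglyceride genes that fell (9.09%, beside 7.84% of all genes). APOC1, an apolipoprotein, was 13.9 against 1.84 FPKM under hypoxia and 5.09 against 1.36 in normoxia. It was the 1 of 5 sterol efflux and lipoprotein genes that fell (20%, beside 7.84% of all genes).

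**Figure D3:**
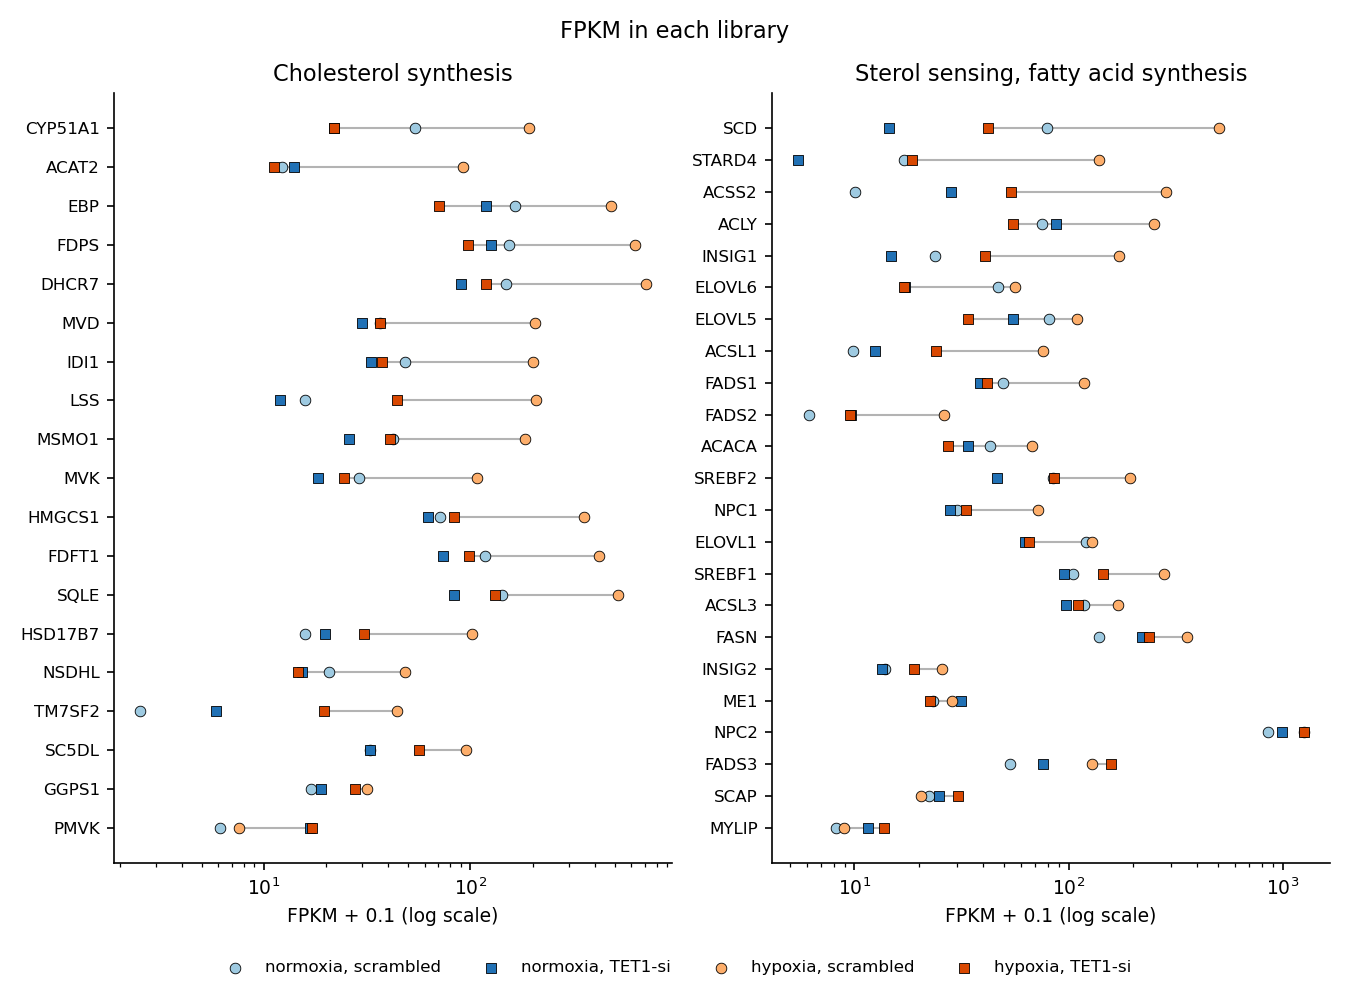
FPKM + 0.1 (horizontal, log scale) of cholesterol synthesis enzymes (left) and genes of sterol sensing and fatty acid synthesis (right) in the 4 libraries, sorted by the change under hypoxia. Circles are scrambled and squares TET1-si libraries, blue normoxia and orange hypoxia, and the grey line joins the hypoxic libraries. For CYP51A1 the orange circle lies at 192 FPKM and the orange square at 21.7, and PMVK runs the other way.

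Chemokines and interleukins are secreted signals that keratinocytes and carcinoma cells release under control of NF-kB, the dimeric factor held in the cytoplasm by IkB proteins. Of 28 listed genes 19 passed the minimum and 9 did not. Of those 19, 17 fell under hypoxia (89.5%) and 1 rose, with a median of -3.03 (-3.13 relative to all genes). In normoxia 12 fell and 1 rose, with a median of -1.69. H-scr held the highest value for 16 of the 19 and H-si the lowest for 13. The minimum is a mean over the 4 libraries, so a gene could pass it through a high H-scr value alone. The counts of fallers and of highest values are therefore not free of that filter. The summed level of the list was 323 FPKM in H-scr and 85.4 in H-si.

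IL8 (ENSG00000169429, chr4:74606223-74609433), the neutrophil attractant CXCL8, was 41.8 against 1.17 FPKM under hypoxia and 17 against 2.74 in normoxia. CXCL1, which binds the same receptor, was 54.2 against 1.74 FPKM under hypoxia and 27.4 against 2.35 in normoxia. LTB, which encodes lymphotoxin beta of the TNF family, was 26 against 0.446 FPKM under hypoxia and 11.6 against 2.03 in normoxia. In each the TET1-si libraries were low in both oxygen states, and the changes under hypoxia were -5.05, -4.88 and -5.58.

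CXCL10 and IL36G were listed at 6.82 and 5.84 FPKM with the scrambled control under hypoxia and at 0 with TET1-si, so no fold is given for them. IL1B was 25.2 against 1.89 FPKM under hypoxia and 14.5 against 2.26 in normoxia. Its antagonist IL1RN was 19.2 against 2.63 FPKM under hypoxia and 12.3 against 2.07 in normoxia. IL1B and IL1RN fell in both oxygen states. IL6 was 6.83 against 3.13 FPKM under hypoxia and 3.51 against 7.01 in normoxia, so that it fell under hypoxia but not in normoxia. IL18 was 38.3 against 49.2 FPKM under hypoxia and 25.8 against 42.3 in normoxia. TSLP, an epithelial alarmin, was 1.71 against 3.84 FPKM under hypoxia and 1.3 against 3.88 in normoxia. CXCL1, CXCL2 and CXCL3 are near-identical over part of their length, and reads may have been split among them.

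Of 14 NF-kB subunits and feedback genes 5 fell (35.7%) and 0 rose, with a median of -0.71, or -0.82 relative to all genes. The genes that fell were TNFAIP3, ICAM1, RELB, NFKBIZ and NFKBIA, which include inhibitors of the pathway. TNFAIP3 (ENSG00000118503, chr6:138188351-138204449), which encodes the ubiquitin-editing enzyme A20, was 96.7 against 5.76 FPKM under hypoxia and 49.7 against 12.2 in normoxia. NFKBIA, which encodes IkB alpha, was 197 against 71.7 FPKM under hypoxia and 117 against 71.3 in normoxia. RELB was 11.4 against 3.35 FPKM under hypoxia and 6.27 against 7.48 in normoxia. Of these 3 genes TNFAIP3 alone also fell in normoxia. RELA, which encodes the p65 subunit, was 155 against 124 FPKM under hypoxia and 136 against 141 in normoxia. REL changed by 0.032, and ICAM1, an adhesion molecule under NF-kB control, was 83.9 against 23.6 FPKM under hypoxia and 36.8 against 17.9 in normoxia.

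The promoters of 4 of these genes are printed because 17 of 19 chemokines and interleukins and 5 of 14 NF-kB genes fell. Each window is the 120 bases before the RefSeq transcript start in GRCh38.p14, read 5′ to 3′ on the gene's strand, and capitals mark matches to the NF-kB core GGNNTTTCC on either strand.
IL8, chr4:73740449-73740568, plus strand: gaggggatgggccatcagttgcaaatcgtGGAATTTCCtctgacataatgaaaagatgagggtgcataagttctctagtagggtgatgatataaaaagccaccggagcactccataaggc
CXCL1, chr4:73869273-73869392, plus strand: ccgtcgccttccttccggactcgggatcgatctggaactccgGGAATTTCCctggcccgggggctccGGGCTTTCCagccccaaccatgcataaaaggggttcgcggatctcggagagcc
LTB, chr6:31582426-31582545, minus strand: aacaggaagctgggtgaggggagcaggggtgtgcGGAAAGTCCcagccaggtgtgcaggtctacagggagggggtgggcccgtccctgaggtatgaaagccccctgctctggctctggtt
TNFAIP3, chr6:137867139-137867258, plus strand: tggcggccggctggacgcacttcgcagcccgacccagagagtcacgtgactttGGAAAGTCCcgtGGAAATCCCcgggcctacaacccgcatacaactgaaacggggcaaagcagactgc
Over whole promoters of 300 bases, the core was present in 19 of 27 promoters (70.4%) of the chemokine and NF-kB lists and in 6.26% of all 35116 RefSeq promoters. The lists had 33 tested members, of which 27 had a promoter in the table. The 4 printed genes all fell, but the core also lay in the promoter of REL, which changed by 0.032. This motif was chosen after the values were seen, its letters can share bases with the interferon core given below, and a match is a description of the letters, not of binding.

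**Figure D4:**
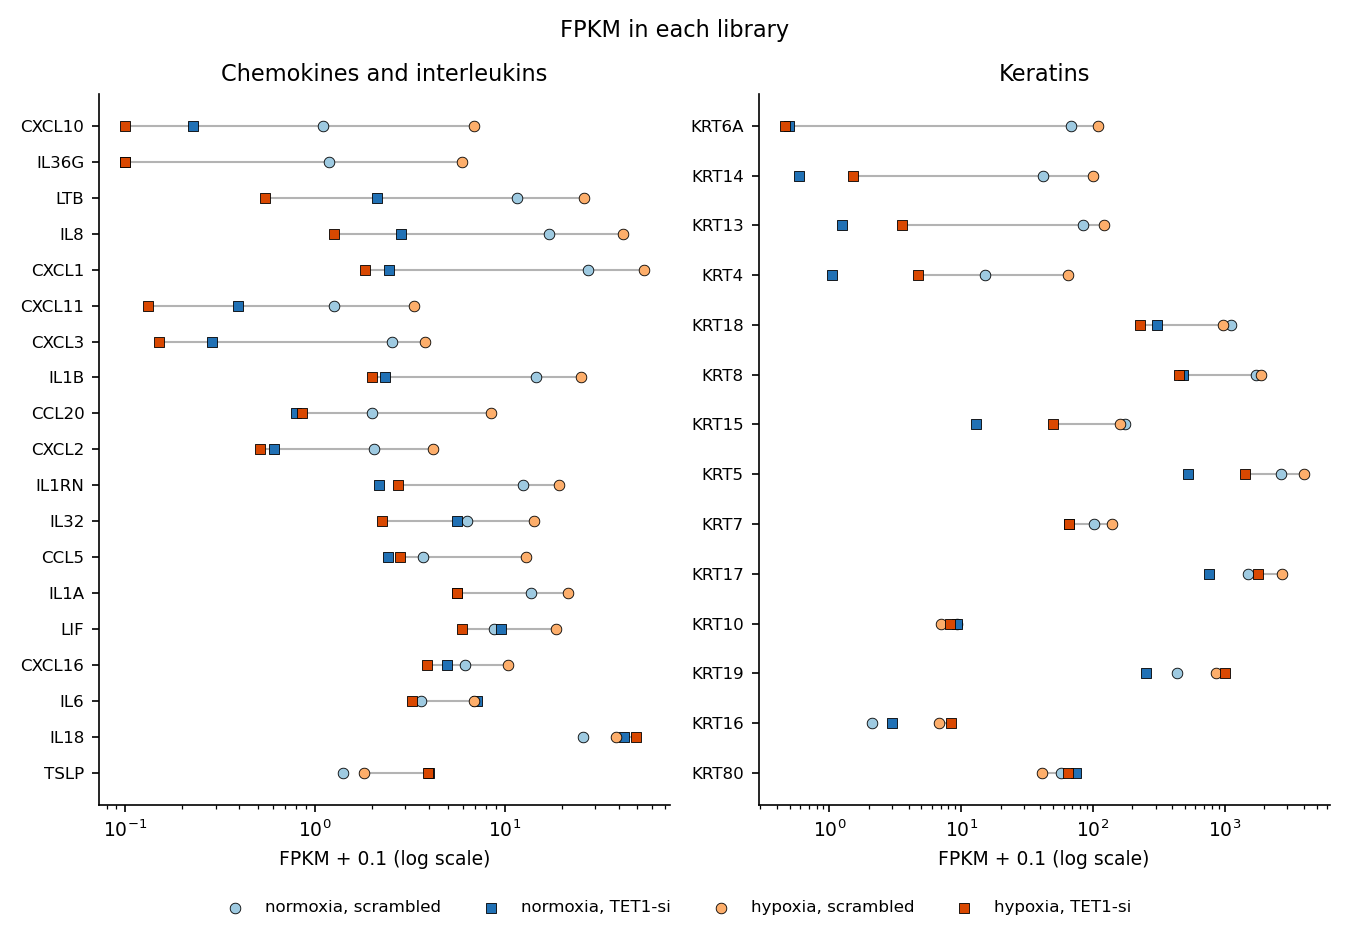
FPKM + 0.1 (horizontal, log scale) of chemokines and interleukins (left) and keratins (right) in the 4 libraries, with symbols as in the plot of sterol genes. CXCL10 and IL36G were listed at 0 in H-si and sit at the pseudocount of 0.1. Both squares lie left of both circles for IL8, CXCL1, KRT6A, KRT14 and KRT13, and IL18, KRT16 and KRT80 show no such gap.

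Interferon-stimulated genes encode antiviral proteins and are switched on by interferon signalling. Of 39 members 21 fell (53.8%) and 1 rose, with a median of -1.10 (-1.20 relative to all genes). In normoxia 4 fell and 6 rose, with a median of 0.079. H-scr was the highest library for 36 of the 39 and H-si the lowest for 5.

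IFI27 (ENSG00000165949, chr14:94571182-94583033) was 479 against 60.7 FPKM under hypoxia and 46.1 against 17.4 in normoxia. The membrane protein IFITM1, which blocks entry of viruses, was 167 against 20.2 FPKM under hypoxia and 63 against 29.3 in normoxia. OAS3, an oligoadenylate synthetase that activates RNase L, was 100.3 against 14.6 FPKM under hypoxia and 32 against 31.1 in normoxia. IFI27 and IFITM1 fell in both oxygen states, and OAS3 changed by -0.039 in normoxia. MX1, a dynamin-like GTPase, was 74.6 against 23.3 FPKM under hypoxia and 7.24 against 10.5 in normoxia. IFIT1, which binds RNA without a methylated cap, was 149.8 against 49 FPKM under hypoxia and 34.7 against 34.9 in normoxia. MX1 and IFIT1 fell under hypoxia and not in normoxia.

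IRF9, a transcription factor of interferon signalling, fell and was 245 against 115 FPKM under hypoxia and 75.2 against 33.6 in normoxia. STAT2, which acts with it, was 163 against 87.4 FPKM under hypoxia and 40.2 against 32.1 in normoxia and did not reach 2-fold. IRF7 was 61.5 against 24.4 FPKM under hypoxia and 7.27 against 10.9 in normoxia. The RNA sensors DDX58 (RIG-I) and IFIH1 (MDA5) changed by -0.55 and -0.55, which did not reach 2-fold. BST2, which encodes tetherin, was the 1 member that rose, at 33.5 against 142 FPKM under hypoxia and 10.1 against 140.5 in normoxia, and its TET1-si values were alike in both oxygen states.

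Of 14 antigen presentation genes 2 fell (14.3%, beside 7.84% of all genes) and 0 rose. TAP1, a peptide transporter subunit, was 65.9 against 23.2 FPKM under hypoxia and 41.5 against 27.2 in normoxia. HLA-DRA, of MHC class II, was 5.43 against 2.08 FPKM under hypoxia and 0.735 against 0.469 in normoxia. A pair of promoters is shown because 21 of 39 interferon-stimulated genes fell, in windows like those above, with capitals at matches to TTCNNTTTC, the core of the interferon-stimulated response element.
IFI27, chr14:94110616-94110735, plus strand: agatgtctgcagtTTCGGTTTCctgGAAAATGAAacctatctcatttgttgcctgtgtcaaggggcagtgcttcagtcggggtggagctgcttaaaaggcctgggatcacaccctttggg
IFI6, chr1:27672193-27672312, minus strand: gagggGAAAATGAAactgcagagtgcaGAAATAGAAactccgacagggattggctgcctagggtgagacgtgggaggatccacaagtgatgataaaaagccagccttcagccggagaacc
In all 35116 promoters the core was present in 8.11%. It also lay in the promoter of IFIH1, which did not reach a 2-fold fall. For this list a promoter was found for 76.9% of members, and for the sterol lists for 78.1%, both under the 80% needed for a share over the list, so that check is void for both. IFI6, a mitochondrial antiviral protein, was 114 against 21.3 FPKM under hypoxia and 13.6 against 8.06 in normoxia.

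Genes of DNA replication are switched on by E2F at the entry to S phase, and those of mitosis later, through promoters with CCAAT boxes and the cell cycle homology region. Of 35 replication genes 25 fell (71.4%) and 0 rose, with a median of -1.33 (-1.43 relative to all genes) and 0.047 in normoxia. Of 30 mitosis genes 10 fell (33.3%) and 0 rose, with a median of -0.92 (-1.02 relative to all genes) and 0.018 in normoxia. H-si was the lowest library for 33 of the 35 and for 30 of the 30. In bulk libraries fewer cells of a type and less RNA per cell cannot be told apart, here fewer cycling cells and less RNA in each.

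The replicative helicase subunit MCM5 (ENSG00000100297, chr22:35796056-35820495) was 115 against 14 FPKM under hypoxia and 154 against 66.3 in normoxia. MCM2 was 83.3 against 16.9 FPKM under hypoxia and 137 against 100.1 in normoxia. MCM6 was 37.1 against 14.9 FPKM under hypoxia and 60.0 against 60.9 in normoxia. CDC6, which loads the helicase, was 69.6 against 14.9 FPKM under hypoxia and 92.8 against 92 in normoxia. MCM5 fell in both oxygen states, and MCM2, MCM6 and CDC6 fell under hypoxia and not in normoxia by the 2-fold measure.

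PCNA, the sliding clamp, was 125 against 46.2 FPKM under hypoxia and 196 against 154 in normoxia. RRM1, the large subunit of ribonucleotide reductase, was 106 against 29.2 FPKM under hypoxia and 177 against 152 in normoxia. RRM2, the small subunit, was 75.5 against 24.2 FPKM under hypoxia and 138 against 175 in normoxia. All 3 fell. E2F1 was 24.8 against 8.45 FPKM under hypoxia and 33.7 against 34.8 in normoxia. CHAF1B, a histone chaperone subunit, was 5.26 against 6.01 FPKM under hypoxia and 8.66 against 24 in normoxia. Its partner CHAF1A was 22.9 against 11.4 FPKM under hypoxia and 41.9 against 40.1 in normoxia. CCNE1, which encodes cyclin E1, was 4.64 against 4.8 FPKM under hypoxia and 4.34 against 7.65 in normoxia. CHAF1B and CCNE1 were the 2 replication genes whose change was above 0.

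Among mitosis genes CCNA2, which encodes cyclin A2, was 34.1 against 5.22 FPKM under hypoxia and 64.6 against 22 in normoxia. MKI67, the Ki-67 proliferation antigen, was 49.4 against 15.5 FPKM under hypoxia and 63.6 against 51.9 in normoxia. ESPL1, the separase that cuts cohesin, was 25.4 against 6.9 FPKM under hypoxia and 37.5 against 25.1 in normoxia. CCNA2 fell in both oxygen states. CDK1 was 145 against 93.3 FPKM under hypoxia and 255 against 382 in normoxia. CCNB1, cyclin B1, was 248 against 129 FPKM under hypoxia and 462 against 407 in normoxia. The changes of CDK1 and CCNB1, -0.64 and -0.94, did not reach 2-fold.

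Windows of 2 mitosis promoters are given with capitals at the cell cycle homology region TTTGAA on either strand.
MKI67, chr10:128126424-128126543, minus strand: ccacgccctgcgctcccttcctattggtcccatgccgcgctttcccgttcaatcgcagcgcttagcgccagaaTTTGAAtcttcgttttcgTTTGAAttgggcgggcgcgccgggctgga
ESPL1, chr12:53268179-53268298, plus strand: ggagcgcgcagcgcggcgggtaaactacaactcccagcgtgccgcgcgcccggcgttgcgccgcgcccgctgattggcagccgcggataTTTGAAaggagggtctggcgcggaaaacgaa
TTTGAA was present in 17 of 25 mitosis promoters (68%), in 1 of 30 replication promoters (3.33%) and in 15.2% of all promoters. CCAAT was present in 20 of the 25 (80%), 16 of the 30 (53.3%) and 34.6% of all. The 2 motifs can share bases, since CCAAT reads ATTGG on the other strand, and the shares are descriptions.

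Of 16 G1 cyclins and CDK inhibitors 1 fell (6.25%, beside 7.84% of all genes) and 1 rose (6.25%, beside 11.5%). CDK4 was 166 against 67.7 FPKM under hypoxia and 273 against 190.2 in normoxia. CDKN2C, which encodes the CDK4 inhibitor p18, was 15.7 against 34.6 FPKM under hypoxia and 10.1 against 31.3 in normoxia. Maintenance methylation is tied to replication, and both of its central genes fell. DNMT1, the maintenance methyltransferase, was 238 against 78 FPKM under hypoxia and 331 against 229.8 in normoxia. UHRF1, which recruits it, was 34.7 against 12.4 FPKM under hypoxia and 56.5 against 61.6 in normoxia. The normoxic changes of both were within 2-fold. The de novo enzyme DNMT3A was 8.45 against 17.4 FPKM under hypoxia and 7.41 against 14.9 in normoxia. DNMT3B was 5.51 against 6.15 FPKM under hypoxia and 6.01 against 7.65 in normoxia. Of the 12 tested TET and DNA methylation enzymes 3 fell (25%, beside 7.84% of all genes) and 1 rose (8.33%, beside 11.5%). The third faller was IDH2, which makes 2-oxoglutarate in mitochondria, at 68.9 against 29.1 FPKM under hypoxia and 29.2 against 31.5 in normoxia.

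**Figure D5:**
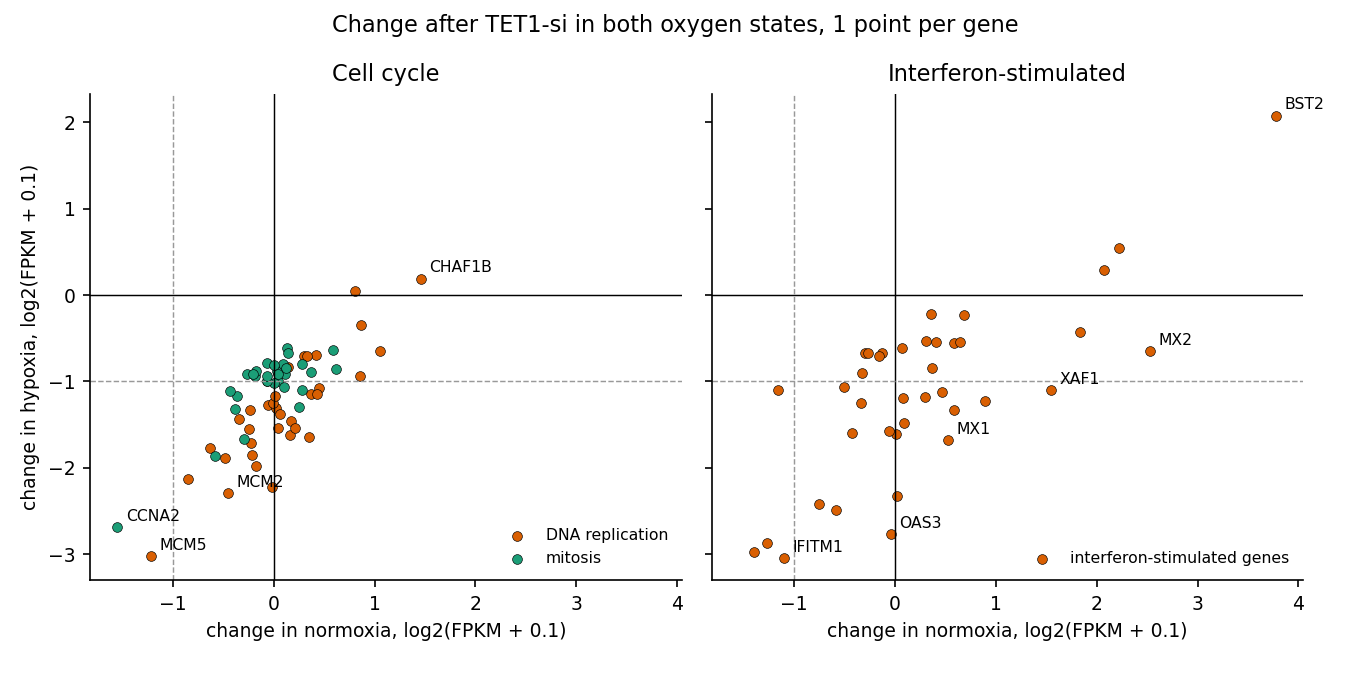
Change after TET1-si in normoxia (horizontal) and hypoxia (vertical) on the log2(FPKM + 0.1) scale, 1 point per gene, for replication and mitosis genes (left) and interferon-stimulated genes (right). Dashed lines mark a 2-fold fall. Cell cycle genes centre near 0 on the horizontal axis (medians 0.05 and 0.02) and at -1.33 and -0.92 on the vertical one, with MCM5 and CCNA2 low on both, and BST2 stands alone at the upper right of the interferon panel.

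Keratins pair as type I and type II chains, KRT5 with KRT14 in basal layers, KRT6A with KRT16 in activated epithelium, KRT4 with KRT13 in mucosa and KRT8 with KRT18 in simple epithelium. Of 10 stratified keratins 6 fell (60%) and of 4 simple keratins 3 fell (75%), and none rose. The medians were -1.58 and -1.57, and in normoxia -3.04 and -1.31.

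KRT14 (ENSG00000186847, chr17:39738531-39743173) was 99.9 against 1.41 FPKM under hypoxia and 42.1 against 0.487 in normoxia. Its partner KRT5 was 3992 against 1430.3 FPKM under hypoxia and 2673 against 524 in normoxia. KRT13 was 121 against 3.48 FPKM under hypoxia and 83.9 against 1.16 in normoxia. Its partner KRT4 was 65.2 against 4.63 FPKM under hypoxia and 15 against 0.943 in normoxia. For KRT14 and KRT13 the scrambled and TET1-si libraries were apart by more than 30-fold under hypoxia, and for KRT5 by 2.79-fold.

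KRT8 was 1903 against 453 FPKM under hypoxia and 1739 against 481 in normoxia. KRT18 was 970.0 against 227 FPKM under hypoxia and 1109 against 304 in normoxia. This pair fell in both oxygen states. KRT16, the partner of KRT6A, was 6.68 against 8.31 FPKM under hypoxia and 2.02 against 2.91 in normoxia. KRT19 was 868 against 1014 FPKM under hypoxia and 434 against 255 in normoxia. KRT17 was 2741 against 1783 FPKM under hypoxia and 1503 against 764 in normoxia, a change of -0.62. KRT8 and KRT18 have many processed pseudogenes, among which reads can be split.

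The cornified envelope, the protein shell of the outermost keratinocytes, was mixed. Of 26 listed genes 16 were below the minimum, and of the 10 tested 3 rose (30%, beside 11.5% of all genes) and 4 fell (40%, beside 7.84%). CALML5, made late in keratinocyte differentiation, was 0.368 against 16 FPKM under hypoxia and 0.197 against 3.13 in normoxia. CNFN, an envelope protein, was 1.18 against 11.1 FPKM under hypoxia and 0.564 against 3.95 in normoxia. TGM1, which cross-links the envelope, was 39.6 against 13.5 FPKM under hypoxia and 7.89 against 2.13 in normoxia. RHCG, an ammonium transporter of squamous mucosa, was 12.4 against 0.377 FPKM under hypoxia and 1.6 against 0.127 in normoxia. CALML5 and CNFN were higher, and TGM1 and RHCG lower, in the TET1-si library of both oxygen states.

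Among 19 squamous lineage transcription factors 4 rose (21.1%, beside 11.5% of all genes) and 1 fell (5.26%, beside 7.84%). ZNF750, which drives terminal differentiation, was 0.478 against 7.03 FPKM under hypoxia and 0.301 against 1.66 in normoxia. GRHL2, a regulator of epithelial junctions, was 70.0 against 159.6 FPKM under hypoxia and 63.5 against 147 in normoxia. SOX2, a squamous lineage factor, was 6.2 against 1.59 FPKM under hypoxia and 12 against 1.35 in normoxia. ZNF750 and GRHL2 rose, and SOX2 fell, in both oxygen states. TP63, which marks basal cells, was 54.8 against 53.4 FPKM under hypoxia and 50.7 against 42.1 in normoxia, a change of -0.038. All 12 squamous markers passed the minimum, and 4 fell (33.3%, beside 7.84% of all genes) and 0 rose, with a median of -0.31. Their summed level, 7717 FPKM in H-scr against 4149 in H-si, came mostly from KRT5 and KRT17. Single markers were low in some libraries, such as KRT14 at 0.487 FPKM in N-si.

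Genes of cell junctions are read here against the 11.5% of all genes that rose and the 7.84% that fell. Of 12 tight junction genes 3 rose (25%) and 0 fell, with a median of 0.65 (0.54 relative to all genes). CLDN1, claudin 1, was 133 against 338 FPKM under hypoxia and 28.5 against 108 in normoxia. OCLN, occludin, was 5.06 against 11.4 FPKM under hypoxia and 5.76 against 14.3 in normoxia. TJP3, a scaffold, was 7.15 against 20.3 FPKM under hypoxia and 2.07 against 2.4 in normoxia. Of 10 desmosome genes 2 rose (20%) and 0 fell, with a median of 0.26, and in normoxia 1 rose and 1 fell, with a median of -0.23. PKP2, a plakophilin, was 28.9 against 90.9 FPKM under hypoxia and 26.5 against 74.4 in normoxia. DSC2, a desmosomal cadherin, was 9.58 against 24.4 FPKM under hypoxia and 7.72 against 12.9 in normoxia. Of 14 hemidesmosome and laminin-332 genes, which anchor basal cells, 2 fell (14.3%) and 0 rose, with a median of -0.34. Among them COL17A1, a collagen of the hemidesmosome, was 147 against 60.3 FPKM under hypoxia and 77.3 against 26.1 in normoxia. Of 13 S100 genes 2 rose, a share of 15.4% beside 11.5% of all genes. S100A14 was 101 against 262 FPKM under hypoxia and 73.3 against 172 in normoxia. S100A16 was 125 against 275 FPKM under hypoxia and 135 against 293 in normoxia. Both rose in normoxia too.

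Genes of the epithelial-mesenchymal transition went both ways, with 3 of 18 higher (16.7%, beside 11.5% of all genes) and 4 lower (22.2%, beside 7.84%). Of 24 listed genes 5 were below the minimum, VIM, ZEB1, ZEB2, SNAI1 and SPARC, and CDH3 stood on several rows. VIM, which encodes vimentin, was 0.406 against 0.0816 FPKM under hypoxia. FN1, fibronectin, was 19 against 2.32 FPKM under hypoxia and 12.5 against 4.24 in normoxia. TWIST1, a transcription factor of the transition, was 3.63 against 1.46 FPKM under hypoxia and 5.83 against 1.6 in normoxia. TGFB2, the ligand TGF beta 2, was 9.67 against 50.5 FPKM under hypoxia and 14.5 against 66.5 in normoxia. ESRP2, an epithelial splicing factor, was 59 against 134 FPKM under hypoxia and 46.3 against 67.8 in normoxia. FN1 and TWIST1 fell, and TGFB2 and ESRP2 rose.

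Of 14 matrix genes 6 rose (42.9%) and 2 fell, with a median of 0.81 (0.71 relative to all genes). COL5A1, a fibrillar collagen chain, was 4.18 against 32.1 FPKM under hypoxia and 0.624 against 10.5 in normoxia. COL6A1, a chain of collagen VI, was 11.6 against 40.7 FPKM under hypoxia and 3.37 against 17.7 in normoxia. THBS1, thrombospondin 1, was 32.6 against 105 FPKM under hypoxia and 49 against 100.4 in normoxia. These 3 rose in both oxygen states. Of the 2 that fell, FN1 is given above, and TNC, tenascin C, was 2.83 against 0.775 FPKM under hypoxia and 3.52 against 1.31 in normoxia.

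Of 6 tested kallikreins, a family of proteases, 3 rose (50%, beside 11.5% of all genes) and 0 fell. KLK6, a secreted serine protease, was 12.3 against 123 FPKM under hypoxia and 38.6 against 239.6 in normoxia. KLK5, which acts in skin shedding, was 9.41 against 48.5 FPKM under hypoxia and 17.7 against 55.7 in normoxia. The list of 18 metalloproteinases and plasminogen genes went both ways, with 3 higher (16.7%, beside 11.5% of all genes) and 4 lower (22.2%, beside 7.84%). The median of this list was -0.067, or 0.000591 when the columns were rescaled to TPM. MMP10, a stromelysin, was 32.4 against 3.68 FPKM under hypoxia and 9.16 against 7.82 in normoxia. PLAT, the tissue plasminogen activator, was 101 against 28.1 FPKM under hypoxia and 19.5 against 18.3 in normoxia. PLAU, the urokinase, was 314 against 148 FPKM under hypoxia and 223 against 95.3 in normoxia. These 3 fell. MMP2, a gelatinase, was 1.25 against 4.21 FPKM under hypoxia and 0.597 against 3.12 in normoxia. MMP14, the membrane protease that activates MMP2, was 51.9 against 131 FPKM under hypoxia and 24.9 against 65.8 in normoxia. Both rose in both oxygen states.

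Of 11 Notch pathway genes 5 rose (45.5%) and 0 fell, with a median of 0.58 and 0.075 in normoxia, where 1 rose. NOTCH1 was 12.7 against 50.8 FPKM under hypoxia and 9.77 against 14.6 in normoxia. NOTCH3 was 3.82 against 14.1 FPKM under hypoxia and 3.14 against 5.66 in normoxia. The feedback target NRARP was 15.1 against 34.6 FPKM under hypoxia and 23.7 against 33.6 in normoxia. In all 3 the H-si library was the highest.

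Of 14 MAPK feedback genes 5 fell (35.7%) and 0 rose, with a median of -0.70 (-0.80 relative to all genes). DUSP6, a phosphatase of ERK, was 19.3 against 4.8 FPKM under hypoxia and 7.0 against 10.3 in normoxia. DUSP4, a related phosphatase, was 3.58 against 0.7 FPKM under hypoxia and 4.33 against 1.69 in normoxia. DUSP6 fell under hypoxia and not in normoxia, and DUSP4 in both. Of 9 EGFR family members and ligands 3 fell (33.3%, beside 7.84% of all genes) and 0 rose. HBEGF, a ligand of EGFR, was 6.19 against 1.95 FPKM under hypoxia and 4.64 against 2.25 in normoxia. AREG, amphiregulin, was 3.98 against 1.94 FPKM under hypoxia and 6.22 against 5.87 in normoxia. The EGFR list's median was 0.0052, near 0, and turned to -0.12 under median-of-ratios and to -0.10 under upper-quartile scaling.

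Of 10 genes of the CCN family and YAP targets 4 rose (40%, beside 11.5% of all genes) and 2 fell (20%, beside 7.84%). CTGF, a CCN protein that moved against WISP2, was 15.5 against 4.09 FPKM under hypoxia and 8.74 against 3.1 in normoxia. NOV, another CCN protein, was 3.08 against 1.17 FPKM under hypoxia and 1.64 against 0.956 in normoxia. Both fell. IGFBP3, which binds insulin-like growth factors and is induced by hypoxia, was 148 against 28.6 FPKM under hypoxia and 68.1 against 8.68 in normoxia. Of 11 genes of the IGF binding and IGF-like list 4 fell (36.4%, beside 7.84% of all genes) and 0 rose. Of 12 AP-1 and immediate-early factors 3 fell (25%, beside 7.84% of all genes) and 0 rose. MAFF, a small Maf factor, was 21.5 against 4.9 FPKM under hypoxia and 6.11 against 5.7 in normoxia. KLF6, a Krüppel-like factor, was 22.1 against 5.81 FPKM under hypoxia and 9.24 against 7.49 in normoxia. FOSL1, which encodes FRA1 of AP-1, was 44 against 18.1 FPKM under hypoxia and 88.7 against 106 in normoxia. None of the 3 changed 2-fold in normoxia.

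HOX genes set position along the body axis and lie in 4 clusters. Of 29 tested 4 rose (13.8%) and 1 fell (3.45%), shares near those of all genes, with 10 of 39 below the minimum. The risers included 3 neighbours of the HOXD cluster. HOXD10 (ENSG00000128710, chr2:176973518-176984670) was 1.98 against 39.9 FPKM under hypoxia and 2.01 against 23.5 in normoxia. HOXD11 was 0.846 against 13.6 FPKM under hypoxia and 1.02 against 9.46 in normoxia. HOXD9 was 0.637 against 7.59 FPKM under hypoxia and 0.296 against 3.54 in normoxia. All 3 were higher in both TET1-si libraries. The 4th riser, HOXB9, was 0.62 against 2.86 FPKM under hypoxia and 0.98 against 4.45 in normoxia. The faller, HOXA11, was 1.75 against 0.507 FPKM under hypoxia and 2.83 against 1.16 in normoxia.

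Many genes of glycolysis are targets of the HIF factors. Of 22 genes of glycolysis and lactate export 1 fell (4.55%, beside 7.84% of all genes) and 0 rose (beside 11.5%), while 14 of the 22 changes were below 0, with a median of -0.28 (-0.38 relative to all genes). The faller was ALDOC, an aldolase, at 257 against 78.2 FPKM under hypoxia and 17.3 against 14.7 in normoxia. The summed level of the list was 14253 and 11015 FPKM in H-scr and H-si, and 10716 and 10115 in N-scr and N-si. Of 26 other HIF targets 1 rose (3.85%) and 2 fell (7.69%), with a median of -0.14.

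CA9, the carbonic anhydrase of hypoxic tumours, was 7.82 against 0.506 FPKM under hypoxia and 0.18 against 0 in normoxia. ADM, adrenomedullin, was 35.9 against 11.6 FPKM under hypoxia and 21.1 against 6.94 in normoxia. TMEM45A was 17 against 69 FPKM under hypoxia and 7.34 against 36.6 in normoxia. CA9 was above 1 FPKM in H-scr alone, and ADM and TMEM45A differed by knockdown in both oxygen states. Of 8 oxygen sensing genes 1 rose (12.5%, beside 11.5% of all genes) and 1 fell (12.5%, beside 7.84%). EGLN2, a HIF hydroxylase, was 43.1 against 19.6 FPKM under hypoxia and 41.9 against 19.5 in normoxia. EPAS1, which encodes HIF-2 alpha, was 21.7 against 62.4 FPKM under hypoxia and 13.3 against 26.8 in normoxia. HIF1A stood on several rows and was not tested. The hypoxia response element core ACGTG was present in 21 of 42 promoters (50%) of these lists and in 21.4% of all promoters.

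Of 76 cytoplasmic ribosomal protein genes 0 rose and 0 fell, with a median of -0.086. Of 23 nucleolar ribosome biogenesis genes 2 fell (8.70%, near the 7.84% of all genes) and 0 rose, and the list's median was -0.47. FBL, fibrillarin, was 313 against 111 FPKM under hypoxia and 496 against 219 in normoxia. NOP58, a core protein of box C/D particles, was 61.4 against 28.1 FPKM under hypoxia and 125 against 68.2 in normoxia. Of 20 genes of the integrated stress response 4 fell (20%, beside 7.84% of all genes) and 0 rose, with a median of -0.47. PSAT1, an enzyme of serine synthesis, was 23.3 against 7.25 FPKM under hypoxia and 82.5 against 44 in normoxia. The factor ATF4 was 344 against 167 FPKM under hypoxia and 388 against 221 in normoxia. None of 15 chaperones of the endoplasmic reticulum changed 2-fold, and 1 of 13 heat shock chaperones fell (7.69%, beside 7.84% of all genes). This was HSP90AA1, at 1005 against 437 FPKM under hypoxia and 1932 against 855 in normoxia.

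Of 17 p53 targets 1 rose (5.88%, beside 11.5% of all genes) and 1 fell (5.88%, beside 7.84%). RRM2B, a ribonucleotide reductase subunit, was 36.9 against 124 FPKM under hypoxia and 25.9 against 86.4 in normoxia. BAX, which opens the mitochondrial membrane in apoptosis, was 281 against 87.1 FPKM under hypoxia and 261 against 122 in normoxia. BAX was also the 1 faller of 11 BCL2 family genes (9.09%, beside 7.84% of all genes). HMOX1, heme oxygenase 1, was 26.9 against 6.4 FPKM under hypoxia and 17.2 against 9.3 in normoxia. It was the 1 faller of 14 NRF2 targets (7.14%) and of 10 iron handling genes (10%), beside 7.84% of all genes. The median of the NRF2 targets was 0.10 and turned to -0.024 under median-of-ratios and -0.012 under upper-quartile scaling. Of 11 tested mitochondrially encoded genes 1 fell (9.09%, beside 7.84% of all genes), and their median was -0.48, against -0.54 in normoxia. Among 4 metallothioneins and 6 clade B serpins none changed 2-fold. Of 13 annexins 2 rose (15.4%, beside 11.5% of all genes) and 1 fell (7.69%, beside 7.84%). Of 11 actin bundling and regulation genes 2 rose (18.2%, beside 11.5% of all genes) and 2 fell (18.2%, beside 7.84%).

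In absolute terms the largest falls in FPKM were KRT5, PPIA, KRT8, ALDOA and RPS19. PPIA, the cyclophilin A isomerase that is often used as a reference gene, was 3404 against 1287 FPKM under hypoxia and 4339 against 2108 in normoxia, a change of -1.40. ALDOA, an aldolase of glycolysis, was 2923 against 1785 FPKM under hypoxia and 1661 against 1275 in normoxia. RPS19 was 2603 against 1469 FPKM under hypoxia and 2793 against 1567 in normoxia. The largest rises were RPS27, TPT1, UBB, S100A10 and C10orf116. C10orf116, an adipogenesis regulatory factor, was 152 against 694 FPKM under hypoxia and 85.3 against 375 in normoxia and rose 4.55-fold. UBB, a ubiquitin gene, was 739 against 1381 FPKM under hypoxia and 993 against 1560.4 in normoxia. RPS27, TPT1 and S100A10 changed by 0.33, 0.57 and 0.65. PPIA, RPS19, RPS27, TPT1 and UBB have processed pseudogenes or copies that share reads.

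The change also differed by chromosome. Over protein-coding genes of chromosomes 1 to 22 and X the median was 0.077, with 9.81% higher and 7.90% lower. On chromosome 21 it was 0.69, with 41 of 115 genes higher (35.7%) and 5 lower (4.35%). On chromosome 7 it was -0.32, with 20 of 550 higher and 85 lower (15.5%), and on chromosome 12 -0.19, with 97 of 659 lower (14.7%). In normoxia the medians of chromosomes 21, 7 and 12 were 0.77, -0.26 and -0.13, so they stood on the same side of 0. Under median-of-ratios scaling the hypoxic medians of chromosomes 21 and 7 were 0.57 and -0.44. The cause of these differences was not tested.

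Markers of other cell types were mostly below the minimum. Of 8 leukocyte markers 3 passed the minimum, CD14, CD68 and ITGAM, with a summed level of 23.8 and 32.5 FPKM in H-scr and H-si, while CD3E, CD3D and MS4A1 were listed at 0 in all libraries. The 1 fibroblast marker that passed, COL1A1, was 28.6 against 37 FPKM under hypoxia and 5.29 against 14 in normoxia, and COL1A2, LUM and PDGFRA were listed at 0 in all libraries. Of 4 endothelial markers 2 passed, with CDH5 at 16 against 45.5 FPKM under hypoxia and 8.75 against 21.7 in normoxia. VWF was 1.79 against 2.94 FPKM under hypoxia and 0.16 against 0.457 in normoxia, and PECAM1 stood only on a patch sequence, where commonly used genes were also listed at 0, so its row gives no level. KDR was below the minimum and lower after TET1-si, at 0.0434 against 0 FPKM under hypoxia and 0.0239 against 0 in normoxia. It rested on about 6 reads in H-scr and 3 in N-scr. CDH5 and the leukocyte sum were higher after TET1-si in both oxygen states, and their part in the results above was not tested. The 1 neural marker that passed, TUBB3, was 4.63 against 2.36 FPKM under hypoxia and 7.11 against 8.02 in normoxia. GFAP, below the minimum, was 0.237 against 0 FPKM under hypoxia and 0 against 2.49 in normoxia. RBFOX3 and SOX10 were below the minimum too.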

How the data were processed

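RNA-Seq of FaDu cells was analysed in 4 libraries, 1 per group. Per the labels and the study's methods, mRNA libraries were prepared with a TruSeq kit, read on an Illumina sequencer and passed by the authors through TopHat and Cufflinks with hg19 and Ensembl genes. The labels call the reads single end and the methods call them paired end. Versions, strand and filters are not given in the sources used here. The deposited values are gene-level FPKM, 1 column per library, with starts counted from 0, so 1 was added. Strand use was not stated, so overlapping and antisense genes can share reads.

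Changes were computed as log2(FPKM + 0.1) in H-si less H-scr. Genes needed a mean of at least 1 FPKM over the 4 columns and a locus of at least 300 bp, which left out 472 rows with such a mean. A further 111 gene IDs stood on 232 rows and were left out, HIF1A and CDH3 among them. Such IDs held a repeated value in the H-si column, and the reason was not tested. With 1 library a group, no test was run. In 13 genes H-scr and in 24 H-si was listed at 0, which can be a failed estimate. FPKM are not counts. Depth was recovered from 4458 genes with 1 exon, by a search for the depth and length offset (216 bp) that made low values whole reads within 0.05, which 95.1% to 96.8% were. Depths were 22500000 to 24600000 reads. Reads per gene are FPKM times depth times the canonical transcript length in GENCODE v44lift37 less the offset. The fold measure and the depth search were tested on simulated data.

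The members and the gene lists were chosen with earlier results of these data known. Some list members enter the counts and medians but are not reported by name here. Named genes were TET1, the 12 largest protein-coding rises and falls at a mean of at least 5 FPKM and above 0 in both hypoxia libraries, the 5 largest rises and falls in FPKM, up to 4 of the largest changes of a list with any member of known central role, and 5 genes with opposite changes in the 2 oxygen states. Promoters came from RefSeq (GRCh38.p14), 250 bases before to 50 after each start, with matches by symbol for 10386 of the tested genes (71.2%), so no motif share over all tested, risen or fallen genes is given. Motifs were searched on both strands. Sterol regulatory element (TCACNCCAC) and AP-1 (TGANTCA) letters were searched too and were present in 1.13% and 7.71% of all promoters, and in 0 and 2 of 13 fatty acid promoters. The hairpin's target was read from the study's supplement and matched to GRCh37. Python 3.11.15, numpy 2.4.6, pandas 2.3.3, scipy 1.17.1 and matplotlib 3.10.9 were used. Alternatives were other pseudocounts (1 and 0.01), filters and scalings.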

Additional observations from a re-analysis of the deposited data

Results flagged for a closer look

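Of 796 named genes and list members, 9 changed at least 2-fold in opposite directions in the 2 oxygen states. With 1 library a group, the difference was not tested for any of them. ACSS2 changed by -2.42 under hypoxia and 1.49 in normoxia, and the sterol reductase TM7SF2 by -1.17 and 1.23. XAF1, an interferon-stimulated partner of XIAP, changed by -1.10 and 1.55, with 27.7 against 12.8 FPKM under hypoxia and 1.89 against 5.74 in normoxia. The cornified envelope precursors SPRR1A and SPRR1B changed by -3.28 and -1.45 under hypoxia and by 2.80 and 1.27 in normoxia. SPRR1A was 7.42 against 0.673 FPKM under hypoxia and 0 against 0.596 in normoxia, and SPRR1B was 3.55 against 1.24 FPKM under hypoxia and 0.107 against 0.401 in normoxia, so that their normoxic values were below 1 FPKM.

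Together with SPRR1A, the other 4 were the genes of the largest opposite changes among all tested. A row of NDUFA7 (ENSG00000167774), a subunit of respiratory complex I, changed by -5.19 under hypoxia and 5.25 in normoxia, with 3.58 against 0.000761 FPKM under hypoxia and 0.00117 against 3.74 in normoxia. A second NDUFA7 row, ENSG00000267855, was lower after TET1-si in both oxygen states. A row named IST1 (ENSG00000261750) changed by -3.05 and 2.86, C3orf65 by 4.47 and -3.89, and AL355490.1 by 4.53 and -4.50. AL355490.1 was listed at 0 in both H-scr and N-si, C3orf65 in N-si and SPRR1A in N-scr, and the first NDUFA7 row had 0 reads in H-si and N-scr, so the size of these changes depends on the pseudocount. AL355490.1 and the IST1 row had no entry under their IDs in GENCODE v44lift37, and no reads were recovered for them.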

How the results depend on the processing

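No paired analysis was possible because each group had 1 library, and for the same reason no library could be left out in turn. The numbers of genes that rose (1677) and fell (1144) and the median change (0.10) and share of risers (59.4%) were recomputed under 10 planned settings and 1 chosen after seeing the data, which left out genes listed at 0 in a hypoxia library and kept all 4 values within their limits. At a mean of at least 5 FPKM, 796 rose and 701 fell, with a median of 0.060 and a share of 53.2%, and with no minimum 4005 rose and 2905 fell, with 10452 and 26014 genes tested in place of 14585. The median was -0.015 and the share 49.1% under median-of-ratios scaling, -0.0033 and 50.1% under upper-quartile scaling, 0.17 and 65.4% under TPM, and 0.077 and 55.4% for protein-coding genes. A pseudocount of 1 gave a share of 57.3%. A pseudocount of 0.01, loci under 300 bp and gene IDs on several rows kept all 4 values within their limits. These were 1.5-fold for a count and the 95% interval for a median or share. That interval treats genes of the same libraries as independent, so it does not measure the uncertainty of the contrast. No named gene or member that changed 2-fold turned its direction under another pseudocount or scaling. A pseudocount cannot turn a direction, and the scalings moved the median of all genes only to between -0.015 and 0.17. This outcome was therefore fixed in advance and is no sign of stability. The medians of 56 lists kept their sign except those of the EGFR family and the NRF2 targets under median-of-ratios and upper-quartile scaling, the metalloproteinases under TPM, and the clade B serpins at a mean of at least 5 FPKM. Low genes rest on few reads, and with 1 library a group no setting replaces a replicate.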
